A study of Oryctolagus cuniculus with 57 samples.

Results

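The ileal transcripts of 5 genes that sense viral RNA were followed in young rabbits: DDX60, RIGI (also written DDX58), IFIH1 (MDA5), DHX58 (LGP2) and TLR3. They were found as every probe of the array that the files, or the naming tables of the paper, assign to these symbols, which gave 12 probes of 42089, and 5 genes of 7968 tested. All 12 probes stood far enough above background to be kept, so no member was lost to the filter on dim probes.

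RIGI and IFIH1 bind viral RNA in the cytosol and signal through the adaptor MAVS on mitochondria, which leads to the synthesis of interferons. DHX58 belongs to the same RIG-I-like family but lacks the signalling domains, and it regulates the other members. DDX60 is a further helicase induced by interferon and linked to RIG-I-like signalling, while TLR3 is a membrane receptor that meets double-stranded RNA in endosomes and signals through TICAM1. In the gut all of them can be made by epithelial and immune cells, and interferons raise their transcription.

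The arrays measured total RNA of whole ileal tissue from rabbits of a commercial hybrid cross (PS Hyplus 19 × PS Hyplus 39), 1 array with 1 dye per rabbit, with values given as log2 of the quantile normalized signal. FF pups had been given, in the nest, feces of unrelated does without antibiotics. FFab pups received feces of unrelated does treated with tetracycline and tiamulin in the drinking water, and NF pups had no feces. In all 3 treatments the mothers' own feces were taken out of the nest, and kits of either sex were sampled at day 35, the age of weaning, or at day 49. The day 35 arrays analysed numbered 10 for FF, 9 for NF and 10 for FFab, those of day 49 were 9 per treatment, and all 56 came from different animals. Rabbits are named by the number in their label. NF rabbit lap78 of day 35 was set aside, as the study did. Feces were given by nest and came from few donor does. The nest of a rabbit was not used here, and rabbits were treated as independent. The SE and p values therefore do not allow for likeness of rabbits from the same nest, and may be too small. The 9 slides held 6 or 7 arrays each and all 6 groups, except that the slide of rabbit lap78 is left with no NF rabbit of day 35. Between 66.0% and 83.7% of the spots of an array were well above background. In bulk tissue, fewer cells of a type and less RNA per cell cannot be told apart.

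The sequences of the probes that carry the results are shown here so that what was hybridized can be seen. Each is a 60-base oligo of the array design, with its position in build oryCun2 as the scanner files give it, and capitals mark bases shared with another probe of the same gene.

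DDX60, chr2:46417468-46421093, minus strand: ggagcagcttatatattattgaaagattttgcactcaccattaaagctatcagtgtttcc
RIGI, chr1:21009315-21009374, plus strand: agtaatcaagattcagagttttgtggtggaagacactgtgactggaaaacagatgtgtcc
IFIH1, chr7:101418444-101418619, minus strand: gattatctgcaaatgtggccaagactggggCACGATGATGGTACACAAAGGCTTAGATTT
IFIH1, another probe, chr7:101418414-101418473, minus strand: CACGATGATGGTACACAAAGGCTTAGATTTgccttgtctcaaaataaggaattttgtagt
DHX58, chr19:42938670-42938729, minus strand: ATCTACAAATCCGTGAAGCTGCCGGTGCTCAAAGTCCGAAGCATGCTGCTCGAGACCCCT
TLR3, chr2:63540632-63540691, plus strand: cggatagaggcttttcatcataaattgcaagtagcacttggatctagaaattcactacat

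The DDX60 oligo lies over 3626 bases of the genome and the IFIH1 oligo over 176 bases, more than the 60 bases of the oligo. The IFIH1 oligos share 30 bases, so they are not independent measures of the gene. The DHX58 sequence is on the array under 2 names, of which the one spotted 3 times was read. The position printed for it is given under the other name only. The locus named DDX60 here is listed in the RefSeq table of mOryCun1.1 without a symbol and was matched here by its gene identifier.

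Different probes of a gene gave like changes. With the group means removed, the probes of DDX60, RIGI, IFIH1 and TLR3 correlated over the 56 rabbits with the probe read at r between 0.947 (DDX60) and 0.988 (RIGI). DHX58 was the exception, since its probe at chr19:42941023-42941081 correlated at 0.732 with the probe read. From day 35 to day 49 in FF that probe rose by 1.06 ± 0.24 on the log2 scale (SE; limma over all kept probes, adjusted p = 0.00324), against 1.19 ± 0.27 for the probe read. Of all kept probes 3.15% were called in FF and 0.0158% in NF. In NF the log2 changes of these DHX58 probes were 0.51 and 0.93, and neither passed.

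In FF rabbits all 5 genes rose from day 35 to day 49, DDX60 by far the most. A gene was called when the adjusted p of limma (Benjamini-Hochberg, over the 7968 genes) was under 0.05 and the log2 change over 0.5. Of all genes 4.57% were called in this comparison, with 2.96% rising and 1.61% falling. The 5 genes were chosen with results of these rabbits known, so the count of 5 of 5 is no independent evidence. Ranked by fold among the 236 genes that rose, DDX60 was in place 2, RIGI 33, DHX58 72, TLR3 124 and IFIH1 152. The median log2 change of all genes was -0.02.

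DDX60 had log2 levels from 4.83 to 10.18 in FF rabbits of day 35 (median 6.29, n = 10) and from 6.74 to 12.26 at day 49 (median 10.32, n = 9). At day 49, 6 of 9 rabbits were above every rabbit of day 35, and 8 of 10 rabbits of day 35 were below every rabbit of day 49. FF rabbit lap102 was the highest of day 35 and FF rabbit lap212 the lowest of day 49. The log2 change was 3.74 ± 0.70 (SE; limma, adjusted p = 0.000372), a 13.3-fold rise. At day 35 the median signal was low, at 64.8 before normalization against 1268 at day 49, although the probe was above background in all 56 arrays. Its fold therefore depended on the background correction: with normexp in place of the scanner's subtraction the log2 change was 2.90 (limma, adjusted p = 0.000423), still called.

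RIGI, which binds the phosphate-bearing ends of viral RNA, ranged in FF from 9.46 to 12.12 at day 35 (median 10.17, n = 10) and from 10.16 to 14.11 at day 49 (median 12.22, n = 9). At day 49, 5 of 9 rabbits were above every rabbit of day 35, and 8 of 9 were above the median of day 35. The log2 change was 1.78 ± 0.40 (limma, adjusted p = 0.00311), or 3.42-fold.

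IFIH1, the receptor for long double-stranded RNA, ranged in FF from 13.01 to 14.14 at day 35 (median 13.66, n = 10) and from 13.42 to 15.58 at day 49 (median 14.30, n = 9). The highest rabbit of day 35 was below 7 of the 9 rabbits of day 49. The log2 change was 0.76 ± 0.19 (limma, adjusted p = 0.00808), or 1.69-fold.

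DHX58, the regulator of RIGI and IFIH1, ranged in FF from 8.94 to 10.69 at day 35 (median 9.75, n = 10) and from 9.60 to 12.30 at day 49 (median 10.77, n = 9). Of the rabbits of day 49, 5 of 9 were above every rabbit of day 35. The log2 change was 1.19 ± 0.27 (limma, adjusted p = 0.00338), or 2.28-fold.

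TLR3, the endosomal receptor, ranged in FF from 9.82 to 11.72 at day 35 (median 10.91, n = 10) and from 11.30 to 12.53 at day 49 (median 11.67, n = 9). Here 8 of 10 rabbits of day 35 were below every rabbit of day 49, while only 3 of 9 rabbits of day 49 were above every rabbit of day 35. The log2 change was 0.88 ± 0.19 (limma, adjusted p = 0.00215), or 1.84-fold. All 5 calls in FF held in each of the 19 fits that left out 1 FF rabbit. Without FF rabbit lap159, the highest of day 49 in all 5 genes, the adjusted p of IFIH1 was 0.0299, the largest of these fits.

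**Figure D1:**
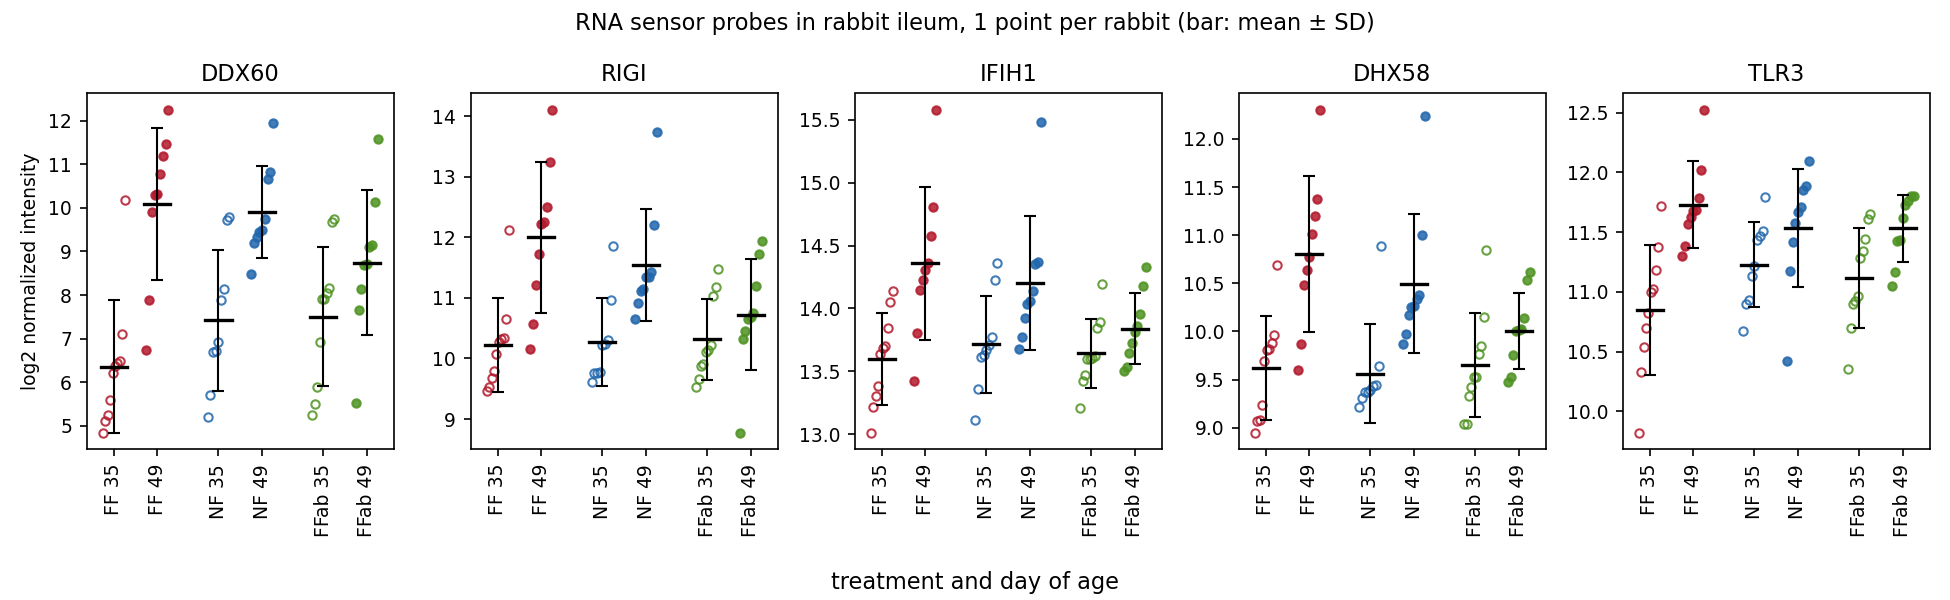
The log2 normalized intensity of each gene (vertical axis, own scale per gene) is plotted for each rabbit by treatment and day (horizontal axis), open at day 35 and filled at day 49, with the mean and SD. The 9 FF rabbits of day 49 reach from 6.74 to 12.26 for DDX60, where those of day 35 reach from 4.83 to 10.18.

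In NF rabbits no member was called. The whole comparison called 2 of 7968 genes, both rising (0.0251%), and 494 genes (6.20%) had an unadjusted p under 0.05. DDX60 ranged from 5.20 to 9.80 at day 35 (median 6.92, n = 9) and from 8.48 to 11.94 at day 49 (median 9.49, n = 9), with 3 of 9 rabbits of day 49 above every rabbit of day 35. Its log2 change was 2.48 ± 0.71 (limma, unadjusted p = 0.00104, adjusted p = 0.296). RIGI went from a median of 10.23 (9.61 to 11.86) to 11.34 (10.65 to 13.74), a log2 change of 1.26 ± 0.41 (limma, adjusted p = 0.417).

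For DHX58 the NF medians were 9.39 (9.21 to 10.89) and 10.26 (9.87 to 12.23), with a log2 change of 0.93 ± 0.28 (limma, adjusted p = 0.327). For IFIH1 they were 13.67 (13.11 to 14.36) and 14.06 (13.68 to 15.48), with 0.48 ± 0.20 (limma, adjusted p = 0.627). All 9 NF rabbits of day 49 were above the day 35 median in each of the 4 helicases, and 2 or 3 were above every rabbit of day 35. TLR3 overlapped more at its low end: it ranged from 10.67 to 11.79 at day 35 (median 11.22, n = 9) and from 10.42 to 12.09 at day 49 (median 11.67, n = 9). No NF rabbit of day 35 was below all of day 49, while 3 of 9 rabbits of day 49 were above every rabbit of day 35. The log2 change of TLR3 was 0.30 ± 0.20 (limma, adjusted p = 0.957), and 0.44 without NF rabbit lap206, the lowest of day 49.

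In FFab rabbits no member passed either, where 7 genes of 7968 (0.0879%) were called and 0.0753% rose. DDX60 ranged from 5.24 to 9.75 at day 35 (median 7.91, n = 10) and from 5.51 to 11.57 at day 49 (median 8.70, n = 9), with 2 of 9 rabbits of day 49 above every rabbit of day 35. Its log2 change was 1.24 ± 0.70 (limma, adjusted p = 0.643). RIGI ranged from 9.53 to 11.47 (median 10.12) and from 8.77 to 11.94 (median 10.68), and its log2 change of 0.41 ± 0.40 (limma, adjusted p = 0.875) became 0.65 without FFab rabbit lap201, the lowest of day 49.

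IFIH1 in FFab had medians of 13.60 (13.21 to 14.19) and 13.81 (13.50 to 14.33), with a log2 change of 0.19 ± 0.19 (limma, adjusted p = 0.881). DHX58 had medians of 9.53 (9.04 to 10.84) and 10.01 (9.48 to 10.61), with 0.36 ± 0.27 (limma, adjusted p = 0.803), and no rabbit of day 49 was above all of day 35. TLR3 had medians of 11.12 (10.36 to 11.65) and 11.62 (11.05 to 11.80), with 0.41 ± 0.19 (limma, unadjusted p = 0.0349, adjusted p = 0.521), and 4 of 9 rabbits of day 49 were above every rabbit of day 35.

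Averaged over the 3 treatments, 281 genes (3.53%) were called and 194 (2.43%) rose with age. DDX60 rose by 2.49 ± 0.41 on the log2 scale (limma, adjusted p = 2.28e-05), RIGI by 1.15 ± 0.23, DHX58 by 0.83 ± 0.16 and TLR3 by 0.53 ± 0.11. IFIH1 had a log2 change of 0.48 ± 0.11 (limma, adjusted p = 0.00213), which lies under the fold threshold of 0.5, and it passed in 5 of the 56 fits that left out 1 rabbit. TLR3 was near the same threshold. Without FF rabbit lap87 its log2 change was 0.49, without FF rabbit lap159 it was just under the threshold as well, and it passed in the other 54 fits.

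**Figure D2:**
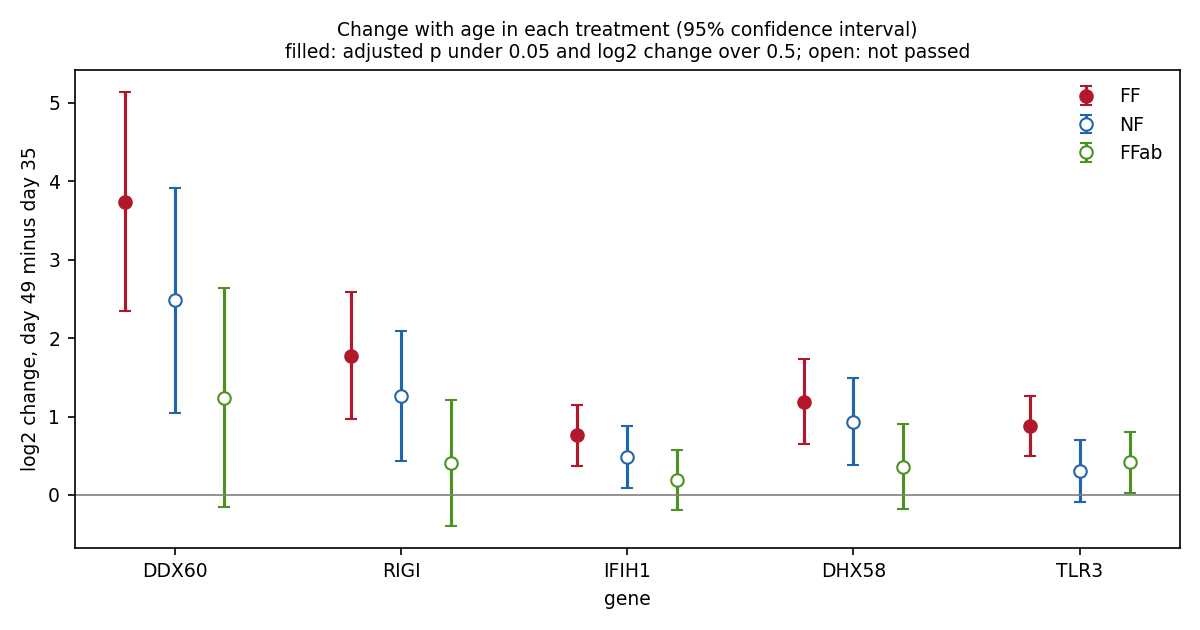
The log2 change from day 35 to day 49 (vertical axis) of each gene (horizontal axis) is shown per treatment with its 95% confidence interval, filled where it passed the test. The FF value is the highest of the 3 treatments in each gene, from 0.76 for IFIH1 to 3.74 for DDX60, and the intervals of the treatments overlap.

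Whether the treatments differed in these changes was tested by the difference between age changes. In all 3 differences 0 of 7968 genes were called by limma, and 373 (4.68%), 230 (2.89%) and 68 (0.853%) had an unadjusted p under 0.05 for FF minus NF, FF minus FFab and NF minus FFab. FF minus FFab was 2.50 ± 0.99 on the log2 scale for DDX60 (limma, unadjusted p = 0.0143), 1.37 ± 0.57 for RIGI (0.0196), 0.83 ± 0.38 for DHX58 (0.0353), 0.57 ± 0.27 for IFIH1 (0.0410) and 0.46 ± 0.27 for TLR3 (0.0920). The adjusted p was 0.9998 in each.

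FF minus NF had an unadjusted p under 0.05 in TLR3 alone among the 5, with 0.57 ± 0.27 (limma, unadjusted p = 0.0411, adjusted p = 0.9991). In the helicases that difference was 1.26 for DDX60 (95% interval -0.75 to 3.26), 0.51 ± 0.58 for RIGI, 0.28 ± 0.28 for IFIH1 and 0.25 ± 0.39 for DHX58. For NF minus FFab the 95% interval reached from -0.66 to 0.44 for TLR3 and from -0.30 to 2.01 for RIGI, so neither sign was settled. A larger change in FF than in another treatment did not pass the test for any of the 5.

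Within a day, no member was called between treatments. At day 49, FF minus FFab called 0 genes, and 2.31% had an unadjusted p under 0.05. The log2 difference was 1.28 ± 0.41 for RIGI (limma, unadjusted p = 0.00314, adjusted p = 0.9999), 0.80 ± 0.28 for DHX58 and 0.52 ± 0.20 for IFIH1. For DDX60 it was 1.35 ± 0.71 and for TLR3 0.20 ± 0.20. At day 35, FF minus NF called 3 genes (0.0377%) and FF minus FFab 1 gene (0.0126%), none a member, and TLR3 had a log2 difference of -0.38 ± 0.19 (limma, unadjusted p = 0.0539, adjusted p = 0.629).

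Since each slide held all groups, the ages could also be compared inside a slide. In FF, DDX60 was higher at day 49 in 9 of 9 slides, with log2 differences from 0.12 to 6.68 (median 4.04). IFIH1 was higher in 9 of 9 slides (median 0.74), and RIGI (median 1.56), DHX58 (median 1.04) and TLR3 (median 0.76) in 8 of 9. In NF, RIGI and DHX58 were higher in 8 of 8 slides, with medians of 1.01 and 0.84, but TLR3 in 4 of 8, with differences from -0.51 to 0.99. In FFab TLR3 was higher in 9 of 9 slides, from 0.11 to 0.74 (median 0.46). DDX60 was higher in 6 of 9, with differences from -4.15 to 3.52 (median 2.23). RIGI (median 0.65), DHX58 (median 0.34) and IFIH1 (median 0.22) were higher in 7 of 9. By the median TLR3 thus lay below DDX60 and RIGI in FFab, and above DHX58 and IFIH1.

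**Figure D3:**
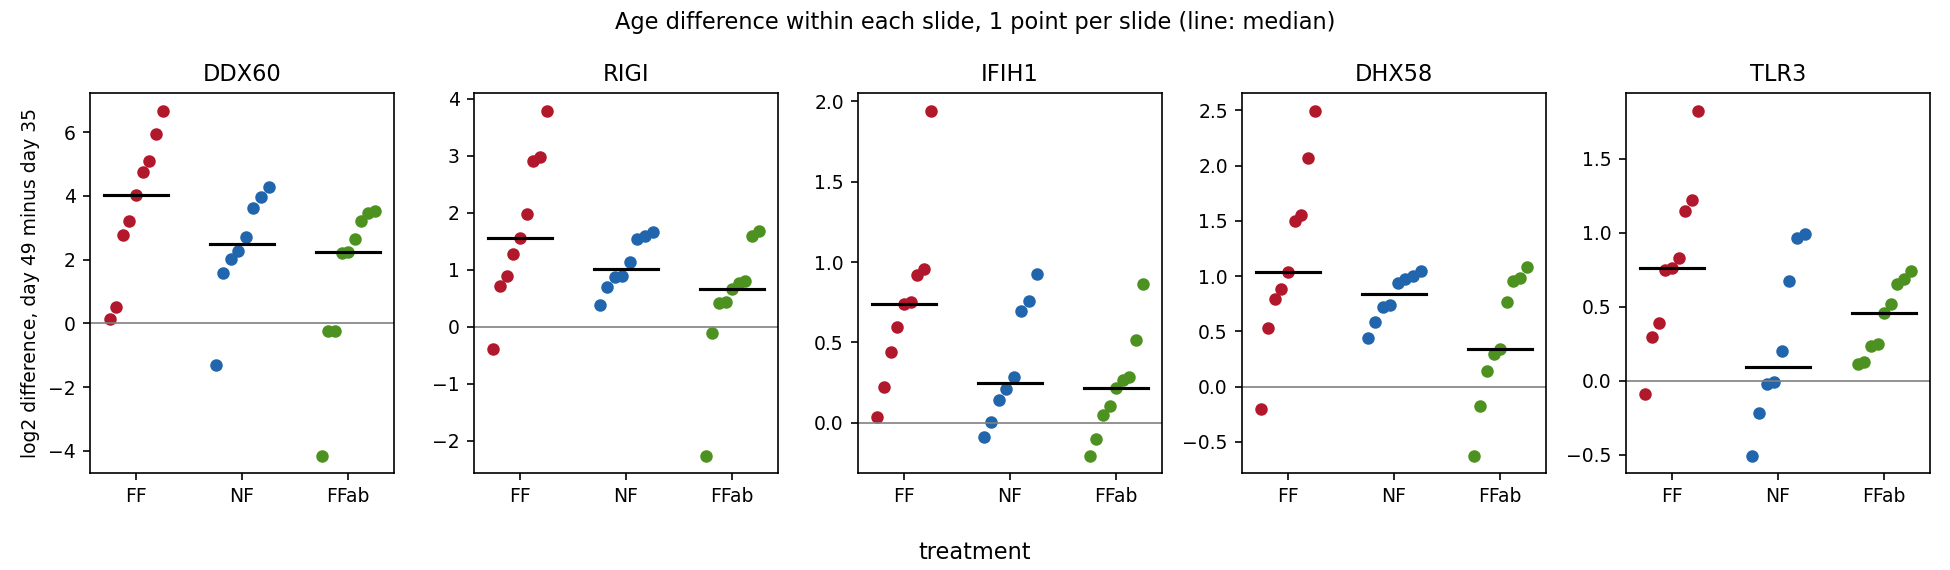
The log2 difference between day 49 and day 35 (vertical axis) inside each slide is plotted by treatment (horizontal axis), 1 point per slide with the median as a line. TLR3 lies above 0 in 9 of 9 slides of FFab and in 4 of 8 of NF, while RIGI and DHX58 lie above 0 in 8 of 8 slides of NF.

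TLR3 was set against each helicase in the same rabbits, as the change with age of the log2 helicase level minus the log2 TLR3 level. The exact permutation test over rabbits was two-sided, and p-values were adjusted over the 12 tests (Benjamini-Hochberg). In FF, DDX60 rose more than TLR3 by 2.86 ± 0.72 (SE; exact permutation, adjusted p = 0.0205). RIGI exceeded TLR3 by 0.90 ± 0.47 (exact permutation, adjusted p = 0.170), which became 0.91 ± 0.34 with slide differences removed (exact permutation, adjusted p = 0.0454). The slide differences were fitted on the same arrays, which this last SE and p do not take into account, so that p may be too small. For DHX58 the difference was 0.31 ± 0.33 (exact permutation, adjusted p = 0.539), and for IFIH1 it was -0.12 ± 0.24 (exact permutation, adjusted p = 0.746). Without 1 FF rabbit these ran from 0.15 (without lap88) to 0.45 (without lap212) for DHX58 and from -0.24 to -0.014 (without lap212) for IFIH1, and none passed. In FF the log2 change of TLR3 lay between those of IFIH1 and DHX58 and differed detectably from neither.

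In NF, DDX60 exceeded TLR3 by 2.18 ± 0.61 (exact permutation, adjusted p = 0.0205) and RIGI by 0.96 ± 0.35 (exact permutation, adjusted p = 0.0416). With rabbit lap78 included, the DDX60 difference was 1.83 (exact permutation, adjusted p = 0.0687). The RIGI call held in 7 of the 18 tests that left out 1 NF rabbit. It was lost without NF rabbit lap77, lap79, lap80, lap83, lap84, lap113 or lap114 of day 35 and without NF rabbit lap170, lap205, lap206 or lap211 of day 49, where adjusted p reached 0.0910. DHX58 minus TLR3 was 0.63 ± 0.32 (exact permutation, adjusted p = 0.170), and 0.65 ± 0.21 with slide differences removed (exact permutation, adjusted p = 0.0210). The latter SE and p again leave the fitting of the slides out of account. In FFab no helicase differed detectably from TLR3, with differences from -0.22 for IFIH1 to 0.83 for DDX60 (exact permutation, adjusted p from 0.313 to 0.986).

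The genes differed in how much they varied between rabbits. Within groups the SD of log2 values was 1.55 for DDX60, 0.89 for RIGI and 0.60 for DHX58, against 0.42 for both IFIH1 and TLR3. By this SD within groups, DDX60 was at the 99.2th percentile of all genes and TLR3 at the 67.0th, and the median gene had 0.33. Over all arrays the SD was 2.02 for DDX60 and 0.50 for TLR3.

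In 6 of the 12 cases, counting the highest and the lowest rabbit of each group, 1 rabbit held that place in all 4 helicases. FF rabbit lap102 was the highest of 10 at day 35, with log2 levels of 10.18 for DDX60, 12.12 for RIGI, 14.14 for IFIH1 and 10.69 for DHX58. FF rabbit lap159 was the highest and FF rabbit lap212 the lowest of 9 at day 49 in each helicase. NF rabbit lap79 was the lowest of 9 at day 35, and NF rabbit lap170 the highest of 9 at day 49. FFab rabbit lap108 was the highest of 10 at day 35. In the other 6 cases the helicases differed: NF rabbit lap113 was the highest of day 35 for DDX60 and lap94 for RIGI, IFIH1 and DHX58. DHX58 alone had another lowest rabbit in FFab at both days and in NF at day 49, and another highest in FFab at day 49, and the lowest FF rabbit of day 35 was lap89, lap88 or lap87 depending on the gene. In TLR3, rabbits lap102, lap108 and lap170 were in place 3 of their groups and rabbit lap212 in place 6, with a log2 level of 11.63, whereas rabbits lap159 and lap79 kept their places.

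Over the 56 rabbits, with group means removed, the 6 pairs of helicases correlated at Pearson r from 0.75 (DDX60 and IFIH1) to 0.89 (RIGI and DHX58). Spearman's rho ran from 0.72 to 0.84, and each p was 1e-05 before adjustment over the 10 pairs, the smallest that 100000 permutations within groups can give. Without the 2 rabbits farthest from the median of the first gene, r was still between 0.71 and 0.86. Inside single groups the median r of the helicase pairs ran from 0.74 in NF at day 35 to 0.93 in NF at day 49. The lowest single pair was RIGI and IFIH1 in FFab at day 35, with 0.45.

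TLR3 went less closely with the helicases. Pearson r was 0.47 with IFIH1 (rho 0.44; permutation, adjusted p = 0.00106 and 0.00203), 0.35 with RIGI (rho 0.39; adjusted p = 0.0122 and 0.00479), 0.33 with DDX60 (rho 0.36; adjusted p = 0.0156 and 0.00961) and 0.20 with DHX58 (rho 0.16; adjusted p = 0.159 and 0.255). Without the 2 farthest rabbits these were 0.41, 0.27, 0.32 and 0.08. At day 35 the 4 values of r had a median of 0.27 and at day 49 of 0.43. Inside single groups the median ran from 0.12 in FFab at day 35 to 0.68 in FFab at day 49. In that last group TLR3 and RIGI reached 0.82, where the helicase pairs ran from 0.69 to 0.90.

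How far apart TLR3 lay from the helicases depended on the slides. Slides took 57.7% of the within-group variance of TLR3, the 90.8th percentile of all genes, against 30.1% for DDX60, 27.8% for RIGI, 42.5% for IFIH1 and 35.8% for DHX58. The median of all genes was 27.1%. On slide 8 the mean deviation of TLR3 from its group means was -0.66 and on slide 2 it was 0.30, whereas RIGI was low on both, with -0.57 and -0.56. In the log2 table deposited by the authors, slides took 47.1% of the variance of TLR3 and a median of 13.5% for all genes. TLR3 there correlated with the values used here at 0.867, and the probes read for the helicases at 0.976 to 0.991.

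**Figure D4:**
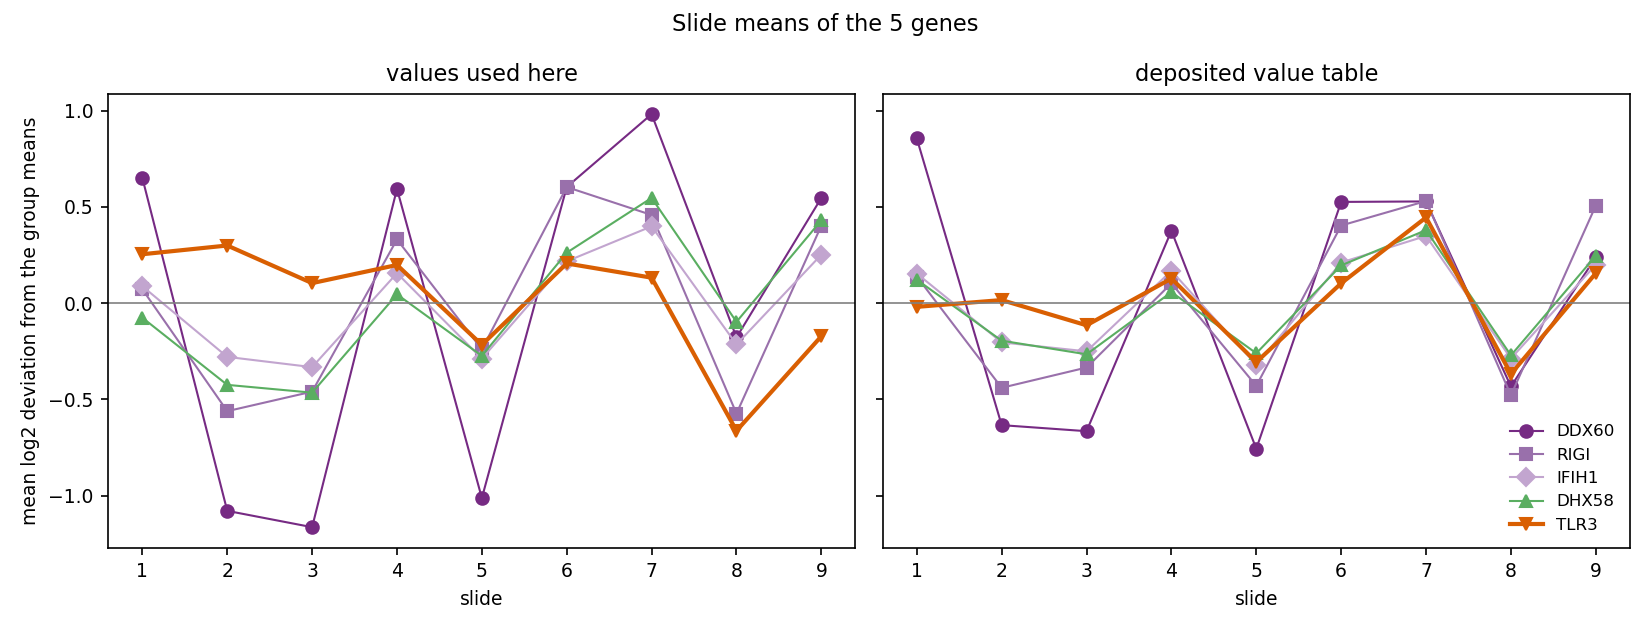
The mean log2 deviation from the group means (vertical axis) of each gene is drawn over the 9 slides (horizontal axis), in the values used here at left and in the deposited table at right. At left TLR3 lies at 0.30 on slide 2, where the helicases are below 0, and at right it lies at 0.02 there.

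With slide means removed as well, r between TLR3 and the helicases was 0.67 for IFIH1 (rho 0.66), 0.50 for DDX60 (rho 0.60), 0.40 for DHX58 (rho 0.36) and 0.37 for RIGI (rho 0.37), with permutation adjusted p from 1.43e-05 to 0.00659. Without the 2 farthest rabbits these were 0.65, 0.60, 0.30 and 0.38. Among the helicases r then ran from 0.64 to 0.92. In the deposited table r with TLR3 ran from 0.50 to 0.73 and among the helicases from 0.74 to 0.93. TLR3 thus followed IFIH1 about as closely as DDX60 followed IFIH1 once slides were taken out (0.67 and 0.64), while its r with DDX60, RIGI and DHX58 was below that of every helicase pair.

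**Figure D5:**
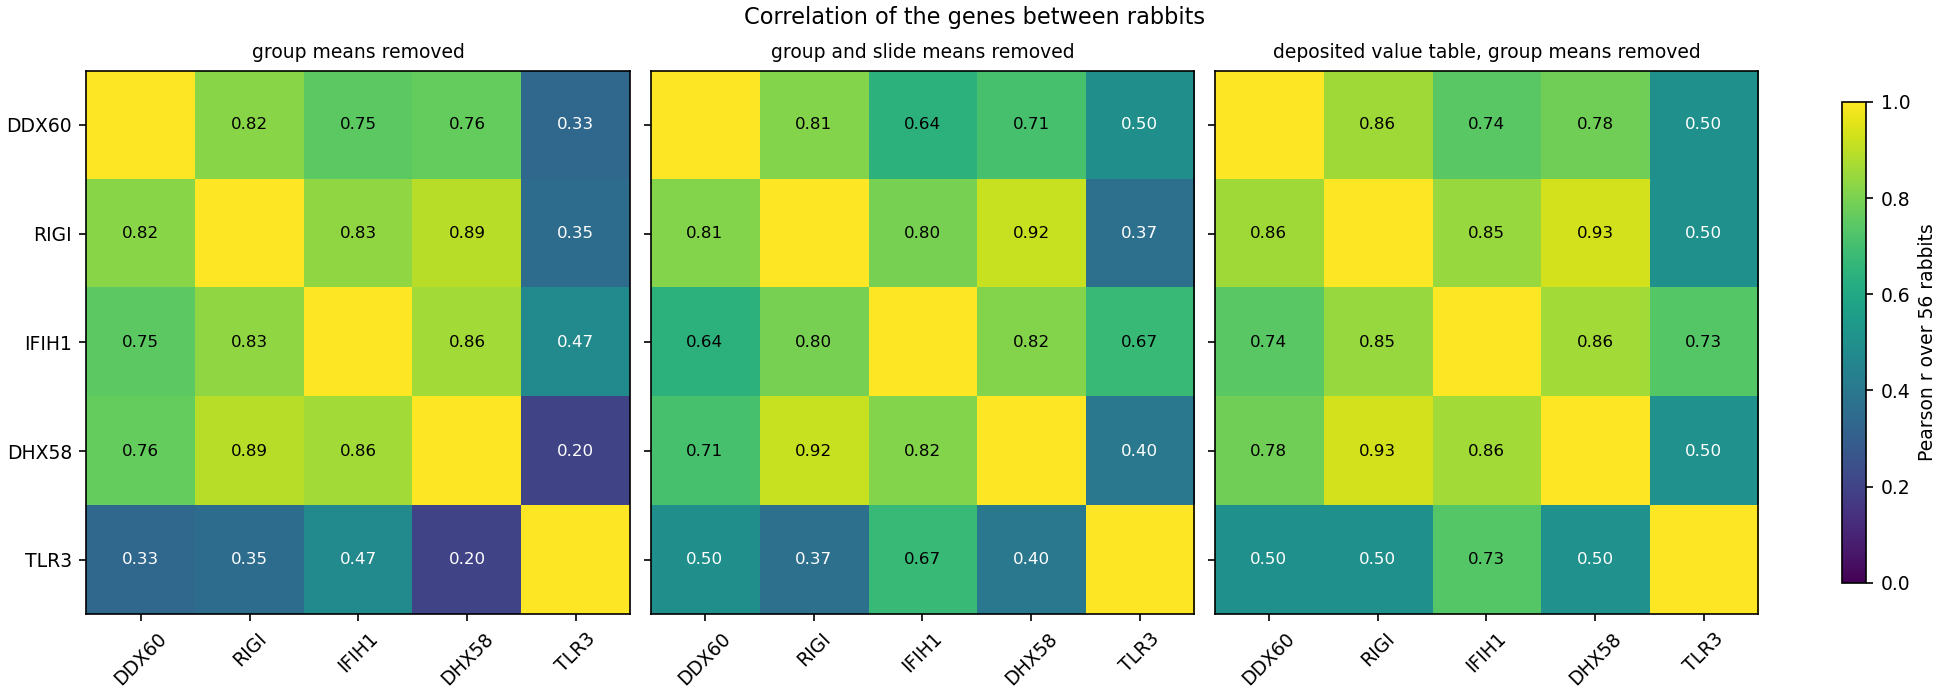
Pearson r over 56 rabbits is shown for each pair of genes (both axes) as colour and number, with group means removed (left), with group and slide means removed (middle) and in the deposited table (right). The 4 values of TLR3 lie between 0.20 and 0.47 at left and between 0.37 and 0.67 in the middle.

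The genes whose pattern over the 56 rabbits was most like that of each helicase, group means kept, came from the same small set. For DDX60 they were XAF1 (r 0.91), UBA7 (0.90), USP18 (0.89), IFI44 (0.89) and HERC5 (0.87). For RIGI they were ISG15 (0.96), IFIT3 (0.96), XAF1 (0.95), UBA7 (0.95) and USP18 (0.95). For IFIH1 they were UBA7 (0.91), ZNFX1 (0.91), DHX58 (0.91), IFI44 (0.90) and EIF2AK2 (0.90), and for DHX58 they were IFI44 (0.95), XAF1 (0.95), ZNFX1 (0.94), EIF2AK2 (0.94) and UBA7 (0.94). ISG15 is a ubiquitin-like protein, UBA7 and HERC5 attach it and USP18 removes it. EIF2AK2 is a kinase that binds double-stranded RNA and halts translation. With slides removed, each of these genes stayed within the 10 most like the helicase it was named for.

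For TLR3 the nearest genes were CALCOCO2 (r 0.85), an autophagy receptor, ATPAF1 (0.74), CCSER1 (0.74), TNFSF10 (0.72), the death ligand TRAIL, and MRPS5 (0.72). Among these only CALCOCO2 was still within the nearest 5 with slides removed (r 0.82, place 2). CCSER1 fell to place 28, MRPS5 to 54, ATPAF1 to 70 and TNFSF10 farther, and the nearest were then ZER1 (0.85), PARP12 (0.82), IFIH1 (0.78) and PARP14 (0.77) beside it. Of the 50 genes nearest to TLR3, 4 to 7 were also among the 50 nearest to a helicase, and 18 to 23 with slides removed. Pairs of helicases shared 31 to 44 of 50, and 31 to 45 with slides removed.

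Other genes around the sensors were read from lists of the pathway. The lists were chosen with earlier results of these data known, so their counts, here and below, are no independent evidence. The interferon-stimulated effectors went with the sensors in FF: 18 of the 20 measured (36 listed) rose, against 2.96% of all genes. None fell, and the median log2 change was 1.77. IFI44L, a response gene, had a log2 change of 2.52 ± 0.42 (limma, adjusted p = 8.27e-05). PARP9 (1.16 ± 0.22) and its partner DTX3L (0.90 ± 0.18) rose, as did EPSTI1 (1.81 ± 0.36). In NF and FFab none of the 20 was called, with medians of 0.99 and 0.53, and 13 and 2 of them were higher at an unadjusted p under 0.05 (6.20% and 8.70% of all genes had one).

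Among other nucleic acid sensors 6 of 15 measured rose in FF (2.96% of all genes rose), with a median log2 change of 0.89. They were the helicase ZNFX1 (0.94 ± 0.23), OAS2 (1.59 ± 0.41), which makes the activator of RNase L, the kinase EIF2AK2 (0.89 ± 0.24), IFIT2 (2.25 ± 0.65), IFIT3 and IFIT5. In NF none of these 15 was called, 9 were higher at an unadjusted p under 0.05, as many as in FF, and the median was 0.62. Of all genes 6.20% had such a p in NF and 21.3% in FF, in either direction. In FFab none was called or had such a p, and the median was 0.17. Among interferons, their receptors and signalling factors 4 of 12 rose in FF, against 2.96% of all genes. They included IRF9 (1.13 ± 0.24), part of the factor that interferon receptors activate, and USP18 (2.63 ± 0.68). The receptor chain IFNGR1 had 0.28 ± 0.07 (limma, adjusted p = 0.00730), under the fold threshold.

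Of the MAVS adaptor, kinases and factors downstream, 1 of 14 measured rose in FF, against 2.96% of all genes, and 5 of 14 were higher at an unadjusted p under 0.05, against 21.3% of all genes with such a p in either direction. The gene that rose was IRF7 (1.91 ± 0.51; limma, adjusted p = 0.0120), itself an interferon-induced factor. The kinase TBK1 had 0.43 ± 0.09 (limma, adjusted p = 0.00238), under the fold threshold, TANK had 0.29 ± 0.11 and RIPK1 0.43 ± 0.16. None of the 15 measured cofactors and regulators of RIG-I-like receptors was called, and the median log2 change was -0.003. The lowest p values among them belonged to PRKRA (-0.33 ± 0.12), PPP1CC (-0.23 ± 0.09), ATG5 (0.17 ± 0.09) and CSNK2A1 (-0.14 ± 0.08).

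In the pathway of TLR3 and its endosomal partners 1 of 11 measured genes rose in FF, against 2.96% of all genes. It was the lysosomal protease CTSS (0.98 ± 0.22; limma, adjusted p = 0.00304). WDFY1 had 0.20 ± 0.10, CD14 had -0.40 ± 0.21 and TAB2 had 0.11 ± 0.09. Of the other Toll-like receptors 0 of 4 measured passed by limma, too few to set against that share, and 1 had an unadjusted p under 0.05: TLR4 had -0.35 ± 0.15 (limma, adjusted p = 0.158), TLR10 had 0.41 ± 0.24, TLR6 had 0.23 ± 0.23 and TLR2 had 0.23 ± 0.27. Neither list was called in NF or FFab.

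The 22 other DEAD and DEAH box helicases tested, most of which work in splicing, ribosome assembly and translation, did not rise in FF. None was called, 8 had an unadjusted p under 0.05 (21.3% of all genes did) and were lower at day 49, and the median log2 change was -0.12. The smallest p values were those of DDX27 (-0.29 ± 0.08; limma, adjusted p = 0.0150), DDX47 (-0.25 ± 0.08), DHX30 (-0.25 ± 0.08) and DDX55 (-0.25 ± 0.08), all under the fold threshold. With 2.96% of all genes rising in FF, 22 genes are too few to set against that share. The list leaves out any DEAD or DEAH box gene placed in another list. It is no even contrast with the 4 member helicases, which were chosen with results of these rabbits known.

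Markers of the cell types in the tissue moved too, and their part in the results was not tested. Of all genes 2.96% rose and 1.61% fell in FF. In FF, 1 of 8 measured markers of T and natural killer lymphocytes rose (PRF1, 1.04 ± 0.32; limma, adjusted p = 0.0303), with the mean log2 level of the list from 7.47 to 8.29 at day 35 and from 7.74 to 8.73 at day 49. Of the B and plasma cell markers 1 of 5 rose (TNFRSF17, 0.95 ± 0.28), with list means from 5.45 to 10 and from 5.80 to 9.14. None of 7 myeloid and none of 3 plasmacytoid dendritic cell markers was called. The myeloid list lay from 7.27 to 7.98 and from 6.98 to 8.04, and the plasmacytoid list from 7.68 to 8.16 and from 7.65 to 8.19.

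Of 9 enterocyte markers 1 rose in FF (ALPI, intestinal alkaline phosphatase, 1.13 ± 0.28), with list means from 14.08 to 15.09 at day 35 and from 14.70 to 15.03 at day 49, so the labelled tissue showed its epithelium. Other treatments reached lower: the lowest list means at day 35 and day 49 were 13.12 and 12.78 in NF, and 12.73 and 13.40 in FFab. The list of goblet, Paneth and enteroendocrine cells had 3 measured genes, none called, with means from 11.37 to 12.99 and from 11.72 to 12.79. Red blood cell markers fell in 2 of 4 (CA1 fell by 2.49 and EPOR fell by 2.23 on the log2 scale), with list means from 6.72 to 9.34 and from 6.48 to 7.11. The others, ALAS2 (-0.67 ± 0.29; limma, adjusted p = 0.158) and SLC4A1 (-0.15 ± 0.28; limma, adjusted p = 0.835), did not pass. Muscle markers rose in 2 of 7 (ACTN2, 2.09 ± 0.41, and TNNC1, 1.85 ± 0.28), with list means from 10.58 to 11.68 and from 11.62 to 12.74. TNNC1 also rose in NF (1.55) and FFab (1.61). At day 35, 4 of the 7 were lower in FF than in NF at an unadjusted p under 0.05 (7.93% of all genes had one) and 3 lower than in FFab (6.36%), and the age change of 3 was larger in FF than in NF (4.68%), none called. Several defining markers, such as CD3D, CD3E, CD3G and CLEC4C, had no measured gene here.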

How the data were processed

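Per the file headers, each array was read with Agilent Feature Extraction 10.10.1.1 (10.7.3.1 in the submitters' processing notes). The authors deposited spot signals as intensity (42089 probes on 62976 spots) and a table of quantile normalized log2 values, used as an alternative. Its treatment of slides is not given in the sources used here. The background-subtracted intensity was averaged over spots, set to log2 and quantile normalized (limma 3.58.1, R 4.3.3). Probes with at least 50% of spots well above background in 75% of the arrays of a group were kept (31722). A gene was read from its probe of median level, the brighter of the middle pair where the number was even. limma fitted 6 group means over 56 arrays. Errors are SE. The number of arrays limits the precision. Pairs with TLR3 were tested by exact permutation within a treatment, correlations by 100000 permutations within groups, which take rabbits of a group as exchangeable although slides differ. Where slides were removed before a permutation test, they were fitted on the same arrays, and the p does not take this into account.

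The genes named are the members, up to 4 genes of a list with the smallest p in FF, and the 5 genes nearest to each member. The members and lists were chosen with earlier results of these data known. Steps were tested on simulated data. Alternatives changed the normalization, background correction, filter, arrays, slides, probe rule and threshold. Figures used matplotlib.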

Additional observations from a re-analysis of the deposited data

Results flagged for a closer look

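In 6 of the 30 sets formed by a gene and a group, the highest rabbit stood far from the others, by a measure that divides its gap to the next rabbit by the range of the group. By chance about 1 in 20 such sets would be picked out, and the helicases are correlated, so the 6 are not separate events. FF rabbit lap102 of day 35 had a DDX60 level of 10.18 on the log2 scale against 7.10 for the next rabbit, a gap of 0.575 of the range. Its RIGI level was 12.12 against 10.66, with a gap of 0.548. NF rabbit lap170 of day 49 had a RIGI level of 13.74 against 12.20 (0.497), an IFIH1 level of 15.48 against 14.37 (0.619) and a DHX58 level of 12.23, with a gap of 0.522. NF rabbit lap94 of day 35 had a DHX58 level of 10.89 against 9.64 for the next, with a gap of 0.749 of the range. TLR3 had no such rabbit in the 6 groups, and rabbits lap102, lap170 and lap94 were each in place 3 of their group in it.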

How the results depend on the processing

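The FF calls of all 5 genes held under all 13 other settings and without each FF rabbit in turn. DDX60 ranged from 2.90 to 3.87 on the log2 scale over the settings, RIGI from 1.72 to 1.83, DHX58 from 1.12 to 1.19, IFIH1 from 0.74 to 0.79 and TLR3 from 0.81 to 0.92. The last setting, the dimmer of 2 kept probes, was chosen after seeing the data. The 364 genes called in FF became 667 with no minimum fold, and the 281 over all rabbits became 1116 with no minimum fold and 177 with normexp. The 2 called in NF became 9 in the deposited table, 1 with normexp, 5 with the median signal, 1 with no filter on dim probes, 5 with rabbit lap78 included, 8 with slide as a random block, 0 with only the groups compared and 4 with no minimum fold. The 7 called in FFab became 3 with no filter, 4 with rabbit lap78 included, 15 with slide as a random block and 0 with only the groups compared. The 4 called between treatments within a day became 2 with the 75th percentile, 0 with the mean over probes, and 1 with the deposited table, normexp, the median signal, no filter, the stricter filter, rabbit lap78 included or only the groups compared. Without 1 rabbit the counts ran from 1 to 15 in NF (15 without lap206), from 4 to 41 in FFab (41 without lap201), from 0 to 1 for FF minus NF and from 0 to 13 between treatments (1 and 13 without lap84).

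Against TLR3, DDX60 in FF passed in all 10 other settings in which it was tested, with differences from 1.99 to 2.95. In NF its differences ran from 1.71 to 2.48, and it passed in 9 of 10. RIGI in FF passed against TLR3 with slide as a fixed block (0.91, exact permutation, adjusted p = 0.0454). That p leaves the fitting of the slides out of account. RIGI in NF was lost with normexp (exact permutation, adjusted p = 0.0513). In FFab, RIGI minus TLR3 turned from -0.0060 to 0.0043 in the deposited table, 0.028 with slide as a fixed block and 0.032 with the mean over probes, and ran from -0.12 to 0.18 without 1 rabbit. DHX58 minus TLR3 in FFab ran from -0.14 to 0.085. The NF minus FFab difference in the age change of TLR3 turned to 0.0060 with rabbit lap78 included and ran from -0.18 to 0.029 without 1 rabbit. The median r of TLR3 with the helicases rose from 0.34 to 0.52 in the deposited table, where the rule picks the other TLR3 probe (0.50 with the probe read elsewhere), and DDX60 with TLR3 was 0.24 with rabbit lap78 included (permutation, adjusted p = 0.0892). The cause was not tested. No paired analysis was possible because each rabbit has its own number and no number recurs between groups. This holds for pairing by number only, since slides served as blocks. Every probe read was above background in all 56 arrays, and the other DDX60 probe in 53.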

Other observations

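NF rabbit lap78 of day 35, set aside from the tests, had log2 levels of 9.72 for DDX60, 8.97 for RIGI, 13.17 for IFIH1, 8.96 for DHX58 and 10.07 for TLR3. RIGI, DHX58 and TLR3 were below the lowest of the other 9 NF rabbits of that age (9.61, 9.21 and 10.67). DDX60 lay near the highest of them (9.80), and IFIH1 near the lowest (13.11).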
